A study of Mus musculus with 27 samples.

Results

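Oligodendrocyte progenitor cells (OPCs) were examined as 5512 nuclei out of 221281 that passed the quality filters, and 241938 barcodes had been deposited. They came from single-nucleus RNA-seq libraries of 27 mouse hippocampi, 1 library per mouse, and each mouse gave 112 to 348 of them. A nucleus was counted as an OPC when it held at least 1 transcript molecule (UMI, a unique molecular identifier counted once per captured transcript) of Pdgfra, the receptor for platelet-derived growth factor, and at least 3 of the 7 genes Vcan, Cspg4, Neu4, Cacng4, Lhfpl3, Megf11 and Tnr. Nuclei with more than 1 UMI of Gad1, Gad2 and Slc17a7 together (neurons), of Mog and Mag together (myelinating oligodendrocytes), of Dcn (fibroblasts) or of Gpr17 (precursors that have begun to differentiate) were left out.

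The study crossed mice that carry P301S tau, a transgene for human tau with a mutation found in familial dementia and expressed from the Prnp promoter, with mice that lack Cgas, which encodes a sensor of DNA in the cytosol. The 6 groups were tau-free Cgas+/+ (n = 5), Cgas+/- (n = 2) and Cgas-/- (n = 2) mice, and P301S mice labelled Cgas+/+, Cgas+/- and Cgas-/- (n = 6 each). Of the 27 mice, 16 were male and 11 female; the labels give no age, and the study states 8 to 9 months for these libraries and 9 to 10 months for tissue collection in its general methods. The questions were what tau expression changes in OPCs and whether losing 1 or both copies of Cgas alters those changes.

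OPCs are the dividing cells of the oligodendrocyte lineage. They persist through adult life, are spread through grey and white matter, receive synaptic input from neurons, and respond to platelet-derived growth factor through Pdgfra. Some leave the cell cycle, pass through a short Gpr17-positive stage and become myelinating oligodendrocytes. Interferons act on their receptors through the kinases Jak1 and Tyk2 and transcription factors that include Stat2, which switch on antiviral genes, many of which carry a short element of repeated GAAA letters in their promoter.

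Whole libraries held 46091490 to 79484316 UMIs, and the OPC nuclei of 1 mouse summed to 524707 to 1228008 UMIs. The median OPC nucleus held 3686.5 UMIs and 1775 genes. File headers named software version 3.0.2 for 12 libraries, all from males, 2 from each of the 6 groups, and version 3.1.0 for the other 15, which included only 3 tau-free mice. Pairs of libraries shared 8 to 48 barcodes (median 21), and at most 1 of them was an OPC barcode in both. Transcripts of Cgas, listed under its older symbol Mb21d1, did not fall with the labelled deletion. In microglia nuclei the mean was 33.7 CPM (a gene's UMIs scaled by the total of the nuclei summed, so that all genes add up to 1e6) ± 14.1 (SD, n = 6) in mice labelled P301S Cgas+/+ and 45.7 ± 6.77 CPM (SD, n = 6) in those labelled P301S Cgas-/-. The sources used here do not say which part of the gene the 3' reads cover relative to the deletion, so these counts do not check the genotype, and directions drawn from the deletion rest on the labels. In sums per mouse, more RNA per nucleus and more nuclei with the RNA cannot be told apart.

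The label was checked on 16 OPC markers that the rule did not use, and the median member held 11 of them. Sox10, a transcription factor of the whole lineage, was detected in 62.5% of OPC nuclei, 41.8% of mature oligodendrocyte nuclei and 0.669% of astrocyte nuclei. C1ql1, a secreted synaptic protein, was detected in 26.1%, 0.128% and 1.15% of these classes, and Sema3d, a guidance factor, in 71.8%, 2.94% and 2.42%. In excitatory and inhibitory neurons Sox10 was detected in 0.717% and 0.695%, C1ql1 in 0.262% and 0.688%, and Sema3d in 5.43% and 3.65%. Other markers of the list were found in most nuclei of another class. Sox6, Ptprz1, Xylt1 and Luzp2 were detected in 95.1%, 97.9%, 82.0% and 81.2% of astrocytes, Dscam, Xylt1 and Pcdh15 in 97.3%, 84.5% and 63.3% of excitatory neurons, and Dscam, Pcdh15, Nxph1 and Luzp2 in 74.5%, 72.5%, 69.6% and 51.97% of inhibitory neurons. Olig1 and Olig2, transcription factors that set up the lineage, were found in 21.6% and 19.4% of OPC nuclei. Median depth was 3669 UMIs in astrocytes, 2064 in mature oligodendrocytes, 1707 in microglia, 10404 in excitatory and 8382 in inhibitory neurons, and the percentages are not corrected for depth.

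**Figure D1:**
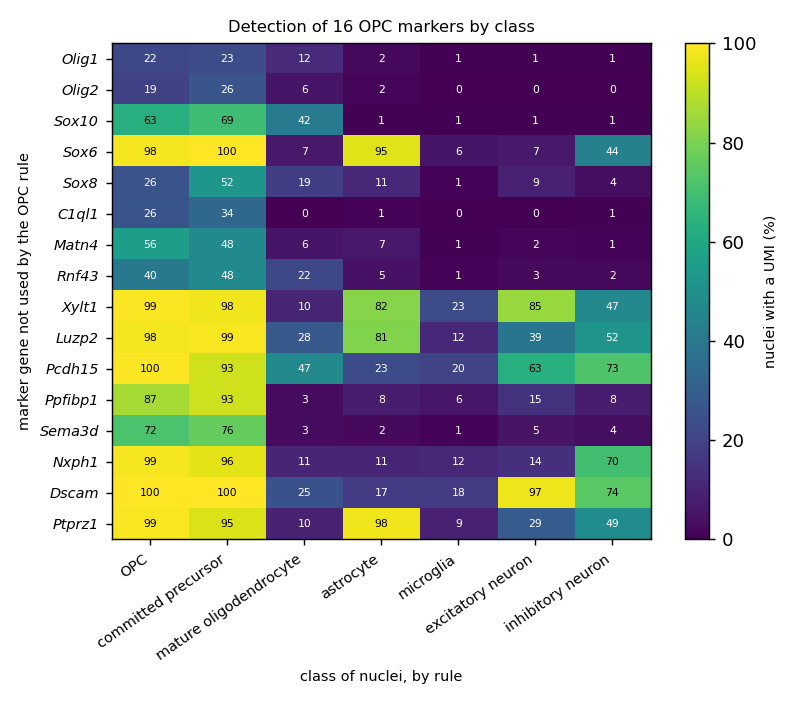
The colour and the printed number give the percentage of nuclei with at least 1 UMI of each of 16 OPC markers (rows, none used by the rule) in 7 classes of nuclei (columns). OPC nuclei and committed precursors share a profile, Sox10 is also found in mature oligodendrocytes, Sox6, Ptprz1, Xylt1 and Luzp2 in most astrocytes, and Dscam, Pcdh15, Xylt1, Nxph1 and Luzp2 in most nuclei of 1 or both neuron classes.

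The limits of the rule cut through similar nuclei in some places and not in others. The 1424 members with a single Pdgfra UMI held a median of 11 independent markers, while the 5769 nuclei that met every other criterion with no Pdgfra UMI held 4. The 79 members with exactly 3 rule markers held 7, and the 192 nuclei with 2 held 4. On the exclusion side, the 1460 members with 1 neuronal UMI and the 414 nuclei left out with 2 both held a median of 11. The same was true of the 341 members with 1 UMI of Mog and Mag and the 51 left out with 2. For Gpr17 the medians were 11 in 967 members with 1 UMI and 12 in 176 nuclei left out with 2. For Dcn they were 11 in 36 members with 1 UMI and 2 in the single nucleus left out with 2.

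Genes that were higher in OPC nuclei than in the other classes compared are listed here, with the rule's own genes set aside. They are given as a description because the nuclei were chosen by expression. The other classes were committed precursors, mature oligodendrocytes, astrocytes, microglia, and excitatory and inhibitory neurons. No class of vascular, fibroblast or choroid plexus nuclei was formed, so the levels of these genes in such cells were not compared. Rmi2, a component of a complex that resolves DNA crossovers, led with a log2 ratio of 1.51 over the next class. Ccnd1, the cyclin that drives cells out of rest, stood at 74.7 CPM in OPC nuclei and 28.1 CPM in committed precursors, the next class. Etv4, a transcription factor downstream of growth factor receptors, stood at 190 CPM in OPC nuclei and 95.7 CPM in committed precursors. Ebf1, a transcription factor best known from B cells, stood at 117 CPM in OPC nuclei, and Akap12, a kinase anchor, at 63.8 CPM. Committed precursors were the closest class for 7 of the 10 leading genes.

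Between OPC nuclei of the same mouse, the transcripts that varied most were largely higher in another class of nuclei. With every nucleus thinned to 1500 UMIs, the median variance-to-mean ratio of 7680 genes was 1.05 over 5428 nuclei, where 1 is the value for random sampling alone. The ratio was 10.6 for Htr2c, a serotonin receptor of choroid plexus and some neurons, 7.28 for Trpm3, 4.95 for Kcnip4 and 4.49 for Reln. Of the 10 most variable genes 9 were higher in another class, and the exception was Lhfpl3 at 2.87, which the rule used. Kcnip4 was detected in 3472 of the 5428 nuclei, and whether these transcripts came from other cells was not tested. The summed level of 9 choroid plexus and ependyma markers reached 1373 CPM in the OPC nuclei of 1 mouse, and 2 P301S Cgas+/+ mice lay above every tau-free mouse.

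OPC nuclei made up a smaller share of the nuclei in P301S mice. The share was 2.86% ± 0.269 (SD, n = 9) in tau-free mice and 2.33% ± 0.535 (SD, n = 18) in P301S mice, a difference of -0.529 percentage points. A two-sided permutation test over mice gave p = 0.00718, adjusted to 0.0346 over the 16 share comparisons made. These share tests, unlike the tests of genes below, held no term for sex or Cgas genotype. Females were a smaller part of the tau-free than of the P301S mice. Among tau-free mice the mean share was 2.72% with Cgas+/+ (n = 5), 2.90% with Cgas+/- and 3.17% with Cgas-/- (n = 2 each, all male and of version 3.0.2). Of the 18 P301S mice, 12 lay below every tau-free mouse and 1 above. With all nuclei thinned to 1500 UMIs the shares were 2.47% and 2.04% (difference -0.436, permutation p = 0.00516, adjusted p = 0.0346), and 14 of 18 lay below.

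The share did not pass the test in every form. Under a stricter OPC rule the difference was -0.273 (permutation p = 0.0797), and with fewer foreign UMIs allowed it was -0.194 (permutation p = 0.124). Within the 15 libraries of version 3.1.0 it was -0.401 (permutation p = 0.299), and within the 12 of version 3.0.2 the permutation p was 0.0173. Among the P301S mice, the mean share was 2.53% with Cgas+/+, 2.03% with Cgas+/- and 2.45% with Cgas-/-. Neither the deletion (difference -0.0780, adjusted permutation p = 0.874) nor heterozygosity (difference -0.500, adjusted permutation p = 0.468) passed the test, and P301S Cgas+/+ against Cgas+/+ alone differed by -0.197 (adjusted permutation p = 0.801). A share is relative to all other nuclei in the library, so it does not count cells.

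A larger share of OPC nuclei expressed cell cycle genes in P301S mice. Nuclei with at least 3 of 20 genes of DNA replication and mitosis made up 0.631% ± 0.347 (SD, n = 9) of OPC nuclei in tau-free mice and 2.92% ± 2.20 (SD, n = 18) in P301S mice. In tau-free mice this share rested on 0 to 3 nuclei per mouse. The difference of 2.29 percentage points gave a permutation p of 0.00098, adjusted to 0.0157, and 13 of 18 P301S mice lay above every tau-free mouse. P301S OPC nuclei were deeper, with a mean over mice of 3956 UMIs for the median nucleus against 3536.5. With nuclei thinned to 1500 UMIs the shares were 0.442% and 1.56%, a difference of 1.12 percentage points (permutation p = 0.0187, not adjusted), with 11 of 18 above. In P301S Cgas+/+ against Cgas+/+ mice the unthinned shares were 3.31% and 0.611%, with 5 of 6 above (exact permutation p = 0.00866, adjusted p = 0.0346). The share was 2.74% in P301S Cgas+/- and 2.72% in P301S Cgas-/- mice, and neither differed from P301S Cgas+/+ beyond the spread (adjusted exact permutation p = 0.801 for each).

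In these 106 nuclei Sox10 was detected in 67.9%, and the median number of the 16 OPC markers that the rule did not use was 11, as in the other OPC nuclei. Top2a, which untangles DNA, was detected in 63.2% of them, Mki67, a proliferation marker, in 39.6%, and Diaph3, an actin regulator needed for cytokinesis, in 83.0%, but these are among the 20 genes that chose the nuclei. In the other OPC nuclei the 3 genes were detected in 0.351%, 0.296% and 19.1%. The 106 nuclei were deeper, with a median of 4884.5 UMIs against 3669, and their summed microglia markers stood at 34.4 CPM against 82.9 CPM in the other OPC nuclei. In mature oligodendrocyte nuclei, which do not divide, 0 to 2 nuclei per mouse met the same criterion, and all of them came from P301S mice. Their mean share was 0% in tau-free mice (n = 9) and 0.0349% (0 to 0.105%, n = 18) in P301S mice, and the reason was not tested. With nuclei thinned to 1500 UMIs the difference between P301S Cgas+/+ and Cgas+/+ was 1.80 percentage points and did not pass (exact permutation p = 0.0779). Within version 3.1.0 the comparison of all P301S with all tau-free mice gave 2.41 percentage points (exact permutation p = 0.0879), and within version 3.0.2 the permutation p was 0.0152.

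**Figure D2:**
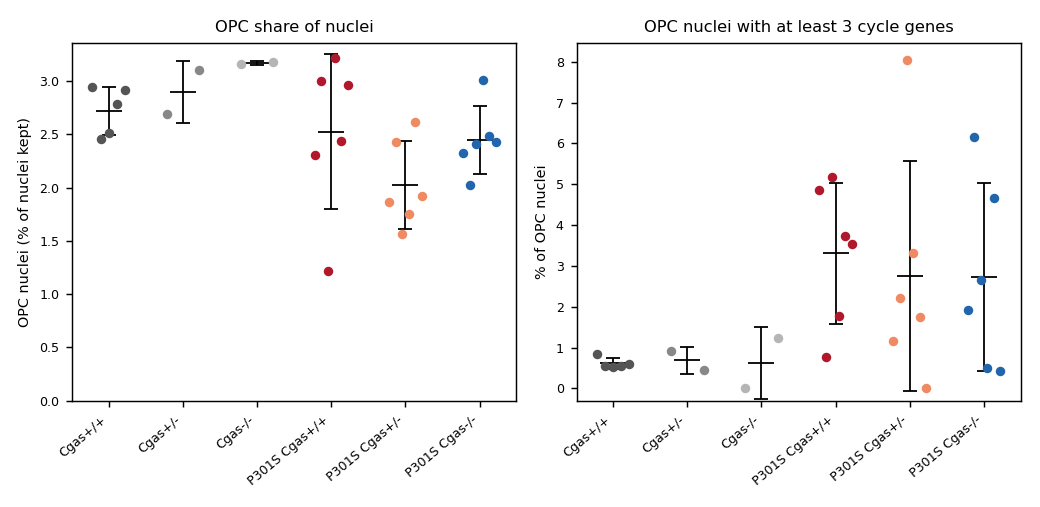
Points are mice (n = 5, 2, 2, 6, 6 and 6 from left to right), and black bars give the mean and SD. The left panel gives OPC nuclei as a percentage of all nuclei kept, and the right panel the percentage of OPC nuclei with at least 3 of 20 cycle genes; 12 of 18 P301S mice lie below all tau-free mice on the left, and 13 of 18 above them on the right.

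Committed precursors, defined by Gpr17 and further genes of early differentiation, numbered 400. There were 7.06 ± 3.29 (SD, n = 9) of them per 100 OPC nuclei in tau-free mice and 7.94 ± 4.10 (SD, n = 18) in P301S mice. The difference of 0.883 did not pass (adjusted permutation p = 0.801), nor did any of the other comparisons between genotypes.

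Across genes, the UMIs of all OPC nuclei of a mouse were summed and tested with edgeR's quasi-likelihood test, with Benjamini-Hochberg adjustment over all genes. P301S mice of all Cgas genotypes (n = 18) were first compared with all tau-free mice (n = 9), with Cgas genotype and sex in the model. Of 8153 genes, 29 were called at an adjusted p under 0.05, which is 0.356%, with 19 higher (0.233%) and 10 lower (0.123%) in P301S mice. No gene separated the 18 from the 9 mice without overlap in either direction (0.0%). Those that rose included 6 interferon-stimulated genes and the immune genes C4b and H2-K1, and those that fell included Rph3a, Tenm1 and Gabra5. Of the 10 lower genes 1, Gpr17, was used by the rule. The filter on low counts could be passed through the P301S mice alone. The calls of C4b, H2-K1, Eif2ak2, Ddx60, Smc4 and Brca2, which were low in tau-free mice, are therefore a description.

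The list with the most calls was that of interferon-stimulated genes. Of its 81 genes 16 were expressed enough to be tested, and all 16 had positive log2 fold changes with a median of 0.98 against 0.00013 for all genes. Of the 16, 6 were called higher, where 0.233% of all genes were. With the called genes included, 12 had an unadjusted p under 0.05, a mark that 4.92% of all genes passed in that direction. Genes had to be expressed in enough mice to be tested, so these 16 are the better expressed members and not the whole list. A gene could also pass through its level in P301S mice alone, which can push the median and the counts upward, so they are no support for the list.

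Stat2, the interferon-activated transcription factor, stood at 12.7 CPM in the lowest, 19.0 in the median and 26.4 in the highest tau-free mouse, and at 22.8, 38.1 and 78.6 CPM in P301S mice. Of the 18 P301S mice, 14 lay above every tau-free mouse, and the log2 fold change was 1.12 ± 0.19 (SE; edgeR adjusted p = 0.00463). The P301S mice were thus spread from the tau-free level to several times that level.

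Eif2ak2, the kinase PKR that halts translation on double-stranded RNA, stood at 4.83, 11.3 and 17.0 CPM in tau-free and 3.80, 31.2 and 59.98 CPM in P301S mice (log2 fold change 1.64 ± 0.31, edgeR adjusted p = 0.0136). The lowest P301S mouse lay under the whole tau-free range and 14 lay above it. Ddx58, which encodes the RNA sensor RIG-I, went from 15.1, 17.5 and 28.96 CPM to 17.2, 36.2 and 75.4 CPM (log2 fold change 0.998 ± 0.225, edgeR adjusted p = 0.0386), with 12 mice above. Ddx60, a helicase that assists RIG-I, went from 2.51, 12.1 and 21.5 CPM to 11.4, 55.7 and 185 CPM (log2 fold change 2.65 ± 0.58, edgeR adjusted p = 0.0425), with 13 above. Rnf213, a large ubiquitin ligase, went from 17.5, 31.4 and 41.7 CPM to 30.4, 80.6 and 183 CPM (log2 fold change 1.56 ± 0.30, edgeR adjusted p = 0.0252), with 15 above.

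Promoters of the called genes were searched on both strands for GAAA, any 2 bases and GAAA again, the core of the interferon-stimulated response element, in a window from 250 bases before to 50 bases after RefSeq start sites (GRCm38.p6). It was found in 1131 of the 32851 mouse promoters searched (3.44%). Among the 31 genes called in this or the smaller tau comparison, 23 had an entry and 7 of these had a match. Not every chromosome was searched, so a gene without an entry was not shown to lack the element. The first share counts promoters and the second counts genes, which can have several promoters, so they are not alike. Of the 7 genes, 5 are among the 6 interferon-list genes with an entry. The windows of 30 bases around these matches are shown because these genes were called higher and belong to this list, with the element in capitals as read on the gene's strand, so that matches on the other strand read TTTC, 2 bases and TTTC. A match is a description of these letters and not of binding.

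Stat2: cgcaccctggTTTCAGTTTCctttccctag
Eif2ak2: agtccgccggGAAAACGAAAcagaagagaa
Ddx58: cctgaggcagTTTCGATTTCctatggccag
Ddx60: gtgatgaatgGAAACCGAAActtaaagctt
Ddx60, second match: gagcagaagaGAAACCGAAActatccttca
Ifih1: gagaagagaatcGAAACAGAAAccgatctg

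They lie on the plus strand at chr10:128270266-128270295 for Stat2, at chr8:61928024-61928053 and chr8:61928058-61928087 for Ddx60, and on the minus strand at chr17:78882535-78882564 for Eif2ak2, chr4:40239804-40239833 for Ddx58 and chr2:62646206-62646235 for Ifih1. The capitals begin 222 bases before the start site in Stat2 and 53 and 19 bases before it in Ddx60, and 19, 3 and 33 bases into the transcript in Eif2ak2, Ddx58 and Ifih1. The other called genes with a match were Brca2 and Tenm1, and Rnf213 had none. An E2F-type element, TTT, any 2 bases and CGC, also searched on both strands, was found in 5.17% of the promoters searched. It was found in 3 of the 23 genes, Brca2, Creb5 and Myo16.

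The summed level of all 81 interferon-stimulated genes in OPC nuclei ran from 376 to 448 CPM in tau-free mice (median 403) and from 424 to 1576 CPM in P301S mice (median 803). It lay above 448 CPM in 6 of 6 P301S Cgas+/+, 4 of 6 P301S Cgas+/- and 6 of 6 P301S Cgas-/- mice. The same sum went from a mean of 308 to 473 CPM in mature oligodendrocytes, from 586 to 1375 CPM in astrocytes and from 1673 to 3562 CPM in microglia of the same mice. In excitatory neurons it went from 252 to 312 CPM and in inhibitory neurons from 298 to 345 CPM.

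RNA of microglia in OPC nuclei was measured beside these values. The 12 microglia markers summed to a mean of 66.0 CPM (42.9 to 117) in tau-free and 89.7 CPM (29.1 to 166) in P301S OPC nuclei, with 3 of 18 mice above the tau-free range. That was 0.692% and 0.9996% of the level in microglia themselves. The interferon sum in OPC nuclei was 24.3% and 23.6% of that in microglia. The part of RNA from microglia or astrocytes in the interferon sum of OPC nuclei was not tested. A UMI of any microglia marker was found in 13.2% and 17.5% of OPC nuclei per mouse. Without those nuclei 23 genes were called, 18 of them among the 29, and every one of the 28 genes that could be tested kept its direction.

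C4b rose as well, and H2-K1 was called higher too. C4b, a complement component, stood at 6.28, 13.3 and 19.0 CPM in tau-free mice and 11.9, 73.7 and 146 CPM in P301S mice, where 17 of 18 lay above the tau-free range. Its log2 fold change was 2.62 ± 0.46 (edgeR adjusted p = 0.0129). H2-K1, a classical MHC class I gene whose reads can be shared with near-identical relatives, went from 2.83, 5.02 and 6.55 CPM to 1.16, 15.2 and 38.4 CPM, with 15 above (log2 fold change 1.78 ± 0.35, edgeR adjusted p = 0.0137). It was too low to be tested without the nuclei that held a microglia marker UMI, under the stricter OPC rule, with stricter exclusion and with thinned nuclei. At its tau-free level H2-K1 could pass the filter on low counts only through the P301S mice. C4b, which was low in several tau-free mice, relied on them too, so the calls of both genes are a description. C4b and H2-K1 were the 2 called of 16 tested genes of the immune and reactive OPC list, whose median was 0.21, where 0.233% of all genes were called higher. In all, 5 of the 16 had an unadjusted p under 0.05 in the upward and 1 in the downward direction. Members could pass the filter through P301S mice, so these counts are no support for the list. The mean level of C4b went from 42.5 to 222 CPM in mature oligodendrocytes and from 118 to 251 CPM in astrocytes of the same mice. The 10 mature oligodendrocyte markers summed to a mean of 234 CPM (173 to 322) in tau-free and 288 CPM (153 to 429) in P301S OPC nuclei, with 5 of 18 mice above the tau-free range. Of the 10, 4 were tested and none was called, and all 4 had positive log2 fold changes (median 0.27). Aspa, an enzyme of mature oligodendrocytes on that list, lay above the tau-free range in 13 of 18 mice (log2 fold change 0.78, edgeR adjusted p = 0.321). The part of these transcripts in the C4b value was not tested. Cd9, a tetraspanin, did not pass (log2 fold change 0.71 ± 0.21, edgeR adjusted p = 0.152), nor did Apoe (-0.35 ± 0.14, edgeR adjusted p = 0.410).

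**Figure D3:**
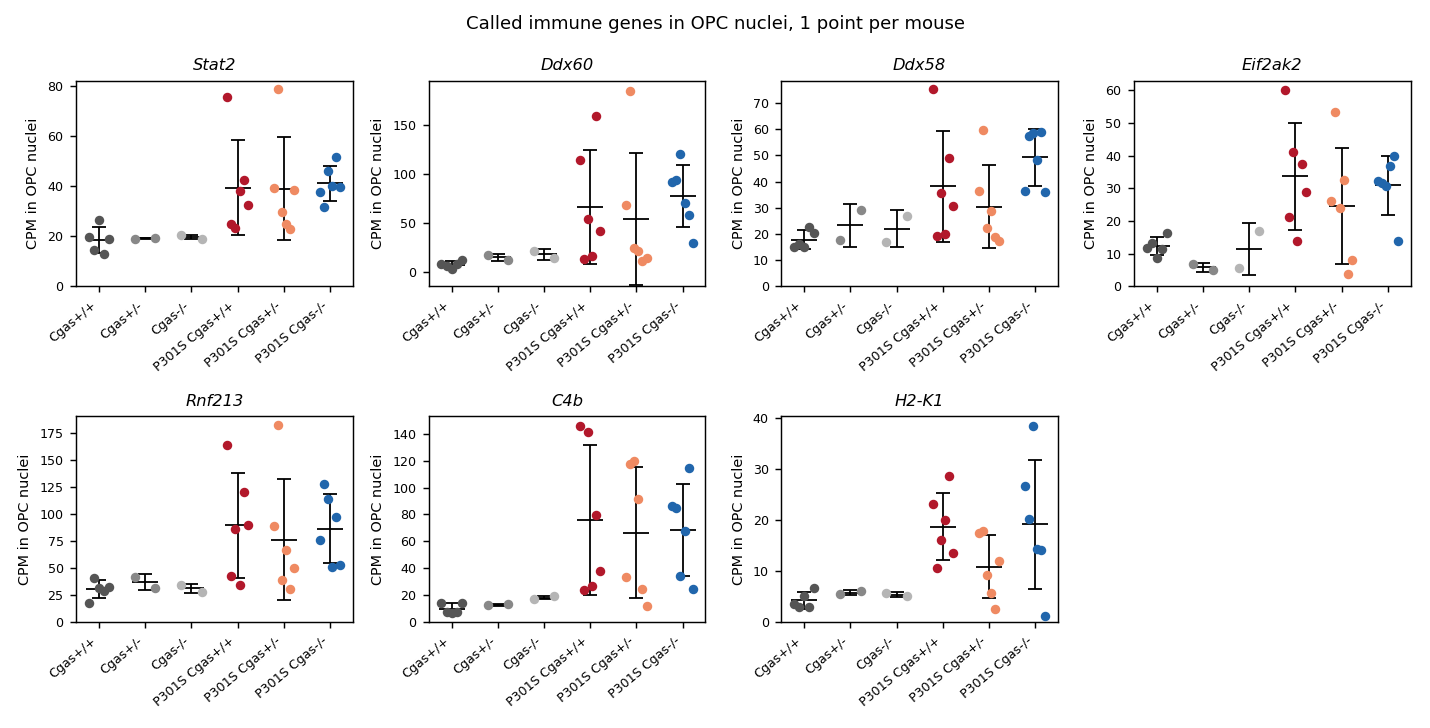
Each of the panels gives 1 called immune gene in CPM of the summed OPC nuclei, with 1 point per mouse and black bars for the mean and SD of each of 6 groups. P301S mice of each Cgas label spread upwards from the tau-free level, and P301S Cgas-/- mice have a mean of 68.6 CPM for C4b.

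Of 9 tested genes of the list of nucleic acid sensing and interferon signalling, which does not hold Stat2, Ddx58 or Ifih1, none was called by edgeR and none reached an unadjusted p under 0.05, and their median was 0.04. Ifnar1, a receptor subunit for type I interferon, had a log2 fold change of -0.01 ± 0.17, Jak1 0.04 ± 0.10 and Tbk1, the kinase downstream of nucleic acid sensors, 0.11 ± 0.11. Mb21d1 was near the limit of detection, with 1 UMI in OPC nuclei of all tau-free mice and 18 in those of all P301S mice, 7 of them in mice labelled P301S Cgas-/-.

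Of 46 listed cell cycle genes 12 were tested in the same comparison and 1 was called, where 0.233% of all genes were called higher. All 12 had positive log2 fold changes, with a median of 0.61, and 9 had an unadjusted p under 0.05, where 4.92% of all genes had one in that direction. The genes tested are the better expressed ones and could pass through P301S mice alone, as above. The called gene was Smc4, a condensin subunit that compacts chromosomes, at 2.51, 7.99 and 16.3 CPM in tau-free mice and 6.15, 15.3 and 38.5 CPM in P301S mice. Only 6 of 18 lay above the tau-free range (log2 fold change 1.07 ± 0.24, edgeR adjusted p = 0.0252). Pola1, a DNA polymerase subunit, came close at 0.43 ± 0.11 (edgeR adjusted p = 0.0514).

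A pair of DNA repair genes outside that list were called too. Brca2, which loads the recombinase onto broken DNA, stood at 6.28, 13.9 and 21.97 CPM and 7.93, 21.9 and 39.99 CPM in the 2 sets of mice (log2 fold change 0.89 ± 0.21, edgeR adjusted p = 0.0400). Rpa1, which coats single-stranded DNA, had a log2 fold change of 0.69 (edgeR adjusted p = 0.0362), and 9 of 18 mice lay above for each gene. Without the 106 nuclei with 3 cycle genes, 24 genes were called, and Smc4, Brca2, Rpa1, Ddx60, Gpr17 and Cdh20 were no longer among them.

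Creb5, Pde3a and 6 further genes outside these lists were also called higher. Creb5, a CREB-family transcription factor, stood at 178, 229 and 257 CPM in tau-free mice and 242, 336 and 552 CPM in P301S mice, with 16 of 18 above (log2 fold change 0.71 ± 0.13, edgeR adjusted p = 0.0129). Pde3a, a phosphodiesterase that breaks down cyclic AMP, went from 98.9, 114 and 141 CPM to 120, 153 and 182 CPM, with 13 above (0.44 ± 0.08, edgeR adjusted p = 0.00997). Zc3hav1, an antiviral zinc finger protein, had a log2 fold change of 0.80 (edgeR adjusted p = 0.0392). Vash1, Rhoq, Myo16, Gm3448 and Cdh20 were called with log2 fold changes between 0.28 and 0.68.

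Among the 10 genes called lower, Rph3a, a Rab effector of vesicle release, had the smallest p. It stood at 69.9, 96.6 and 134 CPM in tau-free mice and 25.7, 53.3 and 73.3 CPM in P301S mice, and 15 of 18 lay below the tau-free range (log2 fold change -0.75 ± 0.13, edgeR adjusted p = 0.00463). Tenm1, a teneurin adhesion molecule, went from 472, 584 and 649 CPM to 346, 432 and 492.6 CPM, with 16 below (-0.40 ± 0.07, edgeR adjusted p = 0.00596). Gabra5, a GABA-A receptor subunit, went from 20.5, 27.9 and 41.9 CPM to 1.91, 13.1 and 26.9 CPM, with 13 below (-0.94 ± 0.22, edgeR adjusted p = 0.0360). The mean of Rph3a went from 92.6 to 109 CPM in excitatory and from 220.5 to 202 CPM in inhibitory neurons. Its change beside those in astrocytes and mature oligodendrocytes is given with the class comparisons below and did not differ past the threshold. The summed excitatory neuron markers in OPC nuclei lay below the tau-free range in 1 of 18 mice, and the inhibitory ones, a sum made up mostly of Erbb4, which OPCs express themselves, in 2. Gad1, the GABA-synthesising enzyme of inhibitory neurons, which the rule capped, went from a mean of 54.2 to 44.7 CPM, with 7 of 18 mice below, and its part in these values was not tested.

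Sema5a, a semaphorin of the extracellular matrix list, fell by 0.36 on the log2 scale (edgeR adjusted p = 0.0362). It was the 1 called gene of 24 tested there, where 0.123% of all genes were called lower. Gpr17, the receptor of early differentiation, had a log2 fold change of -0.55, but the rule capped it at 1 UMI per nucleus, so this value is a description and is not read as a result. Zfp804a, A230077H06Rik, Ablim3, Dgkb and Rtl4 were the remaining genes called lower, with log2 fold changes between -0.68 and -0.33. Beside these genes the 12 astrocyte markers also had a lower sum in P301S OPC nuclei, 5868 against 6421 CPM, with 11 of 18 mice below the tau-free range, and their part in the result was not tested.

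Of the genes that mark OPCs, the rule used Pdgfra, at a median of 726 CPM in tau-free and 777 CPM in P301S mice, and Cspg4, the NG2 proteoglycan (log2 fold change -0.06 ± 0.07), so their levels are a description. Sox10 (0.05 ± 0.12) and Olig2 (0.02 ± 0.19), which the rule did not use, did not pass the test. None of 20 tested growth factor signalling genes, 17 OPC transcription factors, 29 adhesion genes, 30 glutamate and GABA receptor genes of the fixed list, 22 ion channels, 12 myelin genes, 17 cholesterol and lipid genes or 14 stress genes was called by edgeR, and their medians ran from -0.06 to 0.15. Gabra5 was not on the receptor list. DESeq2 called 87 genes in all in place of 29, including all 29. Of the 29, 17 of 27 that could be tested kept their call under the stricter OPC rule, 10 of 25 with stricter exclusion of other cells and 10 of 19 with nuclei thinned to 1500 UMIs, and all those tested kept their direction. Rph3a, Creb5 and C4b kept their calls in all of these, and Tenm1 lost its call with stricter exclusion.

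**Figure D4:**
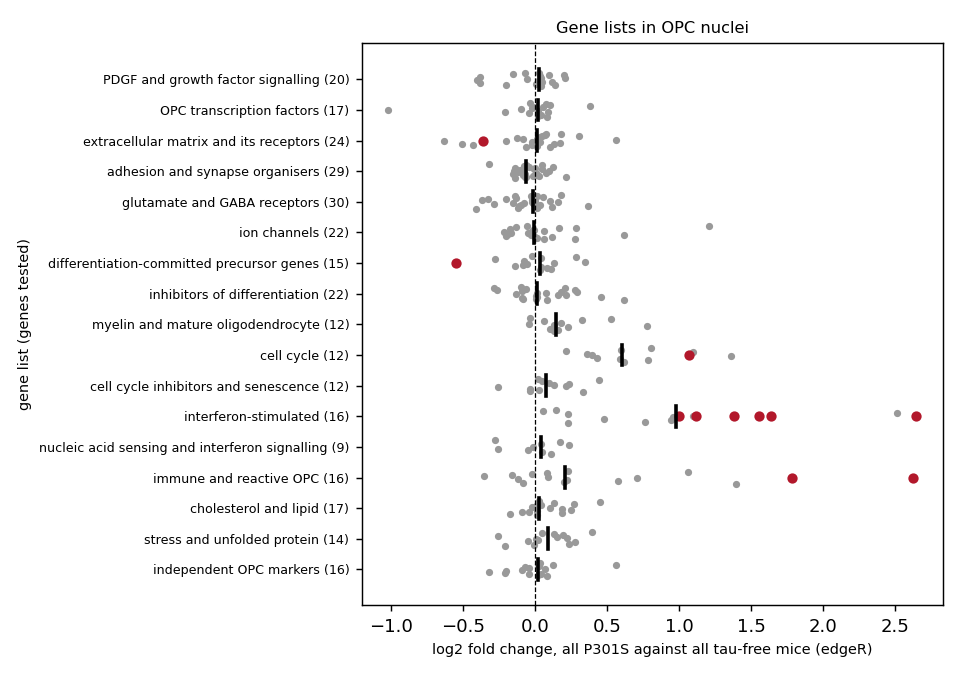
Points are genes, placed by their log2 fold change between all P301S (n = 18) and all tau-free (n = 9) mice, in 17 lists with the number tested in brackets. Red points were called, black bars are list medians, and the dashed line is the median of all genes; the medians of 0.98 for interferon-stimulated and 0.61 for cell cycle genes lie apart from the rest.

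These calls rest on the libraries of both software versions together. Within the 12 libraries of version 3.0.2, 25 genes were called, 9 of them among the 29. Within the 15 of version 3.1.0, where 3 tau-free mice stand against 12, edgeR called none, and all 29 had the same direction. With the version as a term in the model, 28 genes were called, and 26 of the 29 kept their call. Leaving out each mouse in turn, 9 of the 29 were called every time, namely C4b, Creb5, Eif2ak2, H2-K1, Pde3a, Rph3a, Stat2, Tenm1 and Zfp804a. Ddx60 lost its call in 18 of the 27 fits, Brca2 in 15 and Ddx58 in 13.

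**Figure D5:**
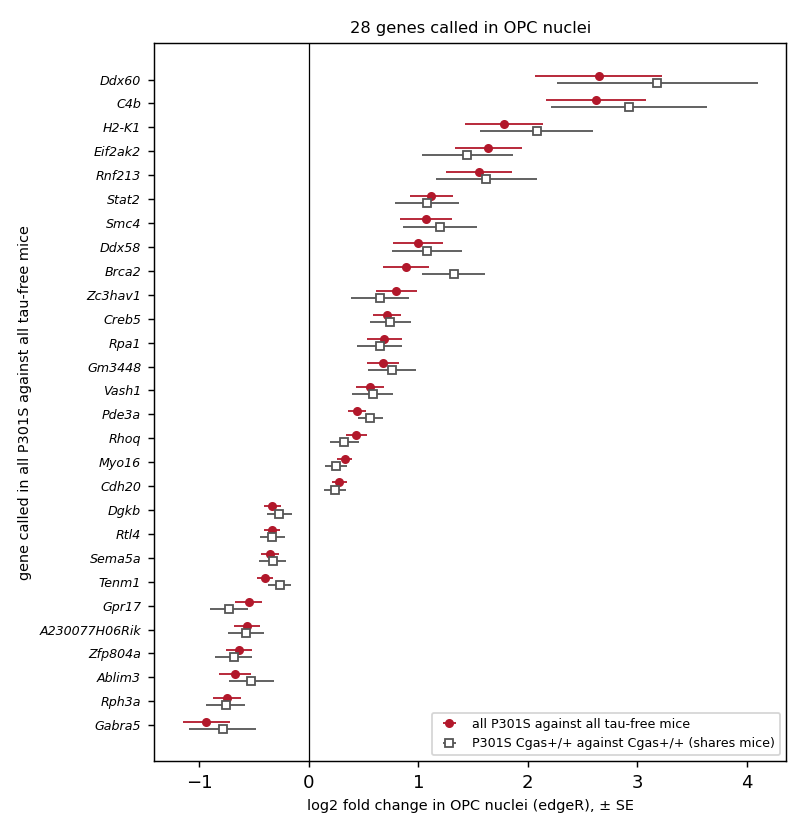
Red circles give the log2 fold change and SE of 28 of the 29 called genes between all P301S and all tau-free mice, and open squares those between P301S Cgas+/+ (n = 6) and Cgas+/+ (n = 5) mice, which are part of the same mice. Ddx60, C4b and H2-K1 stand highest at 2.65, 2.62 and 1.78, and Gabra5 lowest at -0.94.

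With Cgas intact, P301S Cgas+/+ mice (n = 6) were compared with Cgas+/+ mice (n = 5) in a fit over 23 mice. Of 8620 genes 2 were called (0.0232%). Gm43049, a predicted gene on chromosome 3 (140692038 to 140760704, mm10, minus strand), was not found in OPC nuclei of any tau-free mouse, and P301S Cgas+/+ mice held 63 UMIs, at least 16.2-fold higher against a floor of 3 counts over the group. Over all P301S mice 151 UMIs stood against 0. Ifih1, which encodes the RNA sensor MDA5, had 62 UMIs against 3, which is 15.9 times as many per UMI, with 5.201 and 79.3 as exact 95% bounds. Both genes passed the filter on low counts through the P301S groups, so their calls are a description. These intervals and floors cover counting error only.

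In that smaller comparison interferon-stimulated genes had a median log2 fold change of 1.13 over 23 tested genes, against -0.01 for all genes, and 16 had an unadjusted p under 0.05 in the upward direction, which 3.13% of all genes passed. Cell cycle genes had a median of 0.82 over 15 tested, and 12 passed that mark. Members such as Ifih1 entered through the P301S groups, so these medians and counts describe the genes that passed the filter and are no support for the lists. Both comparisons use the same 11 mice, so these values are not independent of those above. The next genes by p did not pass, among them Pde3a (0.56, edgeR adjusted p = 0.0802), Brca2 (1.32) and Extl1 (-1.31, edgeR adjusted p = 0.0814 for both).

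Loss of Cgas, as labelled, was not followed by any called gene in OPC nuclei. Between P301S Cgas-/- and P301S Cgas+/+ mice (n = 6 each) edgeR called 0 of 8620 genes (0.0%), DESeq2 0, and 359 had an unadjusted p under 0.05 (4.16%). Between P301S Cgas+/- and P301S Cgas+/+ mice edgeR called 0 (0.0%), DESeq2 0, and 312 had an unadjusted p under 0.05 (3.62%). Interferon-stimulated genes had a median log2 fold change of 0.01 over 23 tested genes with the full deletion, and -0.31 with heterozygosity, where 1 of 23 was positive and none reached an unadjusted p under 0.05. Over all genes the medians were 0.0036 and 0.0062, and 51.0% and 51.3% were positive. These 23 could pass the filter through P301S Cgas+/+ mice, the reference of both comparisons. The values therefore describe the genes that passed and are no support for the list.

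By group, Stat2 had a mean of 39.4 CPM ± 19.1 (SD, n = 6) in P301S Cgas+/+, 38.9 ± 20.6 (SD, n = 6) in P301S Cgas+/- and 41.0 ± 6.87 (SD, n = 6) in P301S Cgas-/- mice. C4b had means of 75.9 ± 56.3, 66.4 ± 49.0 and 68.6 ± 34.2 CPM (SD, n = 6 each). The groups overlapped over most of their range. The log2 fold change with the full deletion was 0.07 for Stat2 and -0.15 for C4b (edgeR adjusted p = 0.999 for both). Cell cycle genes had a median of -0.32 with the full deletion, where 0 of 15 were positive and 3 had an unadjusted p under 0.05 in the downward direction, which 1.86% of all genes passed. With heterozygosity the median was -0.29 and 0 of 15 were positive, and in females against males it was -0.27 and 0 of 15 were positive. These 15 could pass the filter through P301S Cgas+/+ mice, the reference of the first 2 comparisons, so the values describe the genes that passed and are no support for the list. The genes of smallest p were Tbc1d9 (-0.65), Lrriq1 (-2.17) and Tgfbr3 (-0.84), each at an edgeR adjusted p of 0.692.

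Whether the tau difference in OPCs differed from that in neighbouring classes was tested with limma on the difference between classes within each mouse. Between OPC and mature oligodendrocyte nuclei 0 of 8528 genes passed (0.0%), with 564 at an unadjusted p under 0.05 (6.61%). Between OPC and astrocyte nuclei 0 of 8445 passed (0.0%), with 876 at an unadjusted p under 0.05 (10.4%). The change in Creb5 was larger in OPC nuclei than in mature oligodendrocytes by 0.61 on the log2 scale without passing (limma adjusted p = 0.560). That in C4b was larger than in astrocytes by 1.34 (limma adjusted p = 0.0819), but than in mature oligodendrocytes by 0.11 (limma adjusted p = 0.979). For Rph3a the difference was -0.18 from astrocytes (limma adjusted p = 0.876) and -0.19 from mature oligodendrocytes (limma adjusted p = 0.905). For Pde3a these values were -1.24 (limma adjusted p = 0.433) and 0.23 (limma adjusted p = 0.929).

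Between the sexes, 56 of 8620 genes were called (0.65%), 22 higher (0.255%) and 34 lower (0.394%) in females. The smallest p-values belonged to Xist and Tsix, of the X inactivation centre, and to the Y-linked Uty, Kdm5d, Ddx3y and Eif2s3y. Among list members, Fgfr2, a receptor for fibroblast growth factors, was lower in females by 0.60 on the log2 scale (log2 fold change -0.60), while Fa2h, which hydroxylates myelin lipids, was higher by 0.38. Tmem132b, the 1 called of 29 tested adhesion genes, was higher by 0.32 (edgeR adjusted p = 0.00985). It lost its call in 1 of the 7 alternatives other than leaving out a mouse. All libraries of version 3.0.2 came from males, and with version in the model 9 genes were called. The values were then -0.27 for Fgfr2 (edgeR adjusted p = 0.667) and 0.18 for Fa2h (edgeR adjusted p = 0.751), so neither of these 2 kept its call. With thinned nuclei neither kept it, and Fa2h also lost it under the stricter OPC rule and with stricter exclusion.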

How the data were processed

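The deposited files hold raw UMI counts of 31053 genes per barcode, which the authors made from 10x Chromium 3' v3 libraries with Cell Ranger (3.1.0 per the submitters' notes; file headers name 3.0.2 or 3.1.0), on mm10. Samples were grouped by the genotype in the labels. Barcodes were kept with 200 to 4000 genes and a mitochondrial UMI share of up to 5%. No doublet caller was run. The rule's exclusion genes mark neurons, myelinating oligodendrocytes, fibroblasts and differentiating precursors, and hold no astrocyte or microglia gene. Members and lists were chosen with earlier results of these data known. The rules for the comparison classes were written after the design was fixed, as were the motif search, the within-version fits and the fits without nuclei holding cycle genes or microglia UMIs.

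Counts were summed per mouse over OPC nuclei (524707 to 1228008 UMIs) and tested with edgeR 4.0.16 (TMM, expression filter, robust quasi-likelihood; R 4.3.3) with group and sex. The fit of 4 groups used 23 mice, and that of all P301S against all tau-free mice used 27. Class differences were tested with limma 3.58.1 on log2 CPM with a prior count of 2. Shares were compared by two-sided permutation over mice (scipy 1.17.1; exact, or 100000 resamples for 18 against 9), with Benjamini-Hochberg adjustment over 16 tests. Leading genes needed 20 CPM, with 1 CPM added to both levels in the ratio, and variable genes needed a UMI in 100 thinned nuclei. Named genes were the called genes of smallest p (at most 12 per comparison, topped up to 6), called and best expressed list members and a fixed set; the other called genes of the 27-mouse fit were also named, except 1 that is not reported here. Alternatives were DESeq2 1.42.0, other size factors, no filter, no sex term, stricter rules, thinned nuclei and each mouse left out. The fits were tested on simulated data. The labels do not say that mice are littermates or share a batch. Older symbols stand as in the files, and gene positions are from GENCODE vM21.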

Additional observations from a re-analysis of the deposited data

Results flagged for a closer look

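Over 37 measures, 147 groups of 5 or 6 mice were checked for a mouse far from its nearest neighbour. The gap had to take up most of the group's range, and 7 groups had such a mouse. Chance alone gives one in about 1 in 20 groups, and the number flagged is close to that share. P301S Cgas+/- replicate 2 stood apart for Ddx60, at 185 CPM against 11.4 to 68.2 in the other 5 mice, and for Stat2, at 78.6 CPM against 22.8 to 39.2. P301S Cgas+/+ replicate 1 stood apart for Stat2, at 75.4 CPM against 23.2 to 42.3, and for Smc4, at 38.5 CPM against 10.5 to 19.8. Smc4 was also high in P301S Cgas+/- replicate 3, at 31.4 CPM against 11.4 to 17.7. Eif2ak2 was low in P301S Cgas-/- replicate 6, at 13.9 CPM against 30.7 to 39.8. The share of OPC nuclei with 3 cycle genes was 0.840% in Cgas+/+ replicate 1 against 0.521% to 0.597% in the other Cgas+/+ mice, and it rested on 2 nuclei.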

How the results depend on the processing

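No paired analysis was possible because the labels carry no replicate numbers; the numbers used here only name mice in accession order and pair none. Of 2112 values for single named genes under the alternatives, 1780 kept their direction and side of the threshold, 310 lost their call, 22 gained one and 0 reversed; the cause of the changes was not tested. For P301S Cgas+/+ against Cgas+/+, 2 called genes became 6 with DESeq2, 63 without the low-count filter, 1 under the stricter OPC rule and 5 with software version in the model, and 0 without the sex term, with stricter exclusion, with thinned nuclei or with these groups fitted alone. Without the filter the deletion gave 20 and heterozygosity 1. The sex comparison gave 197 without the filter, 26 with stricter exclusion, 25 with thinned nuclei and 9 with version in the model. All P301S against all tau-free mice gave 87 with DESeq2 (71 higher), 278 without the filter (184 higher), 15 with stricter exclusion, 19 with thinned nuclei and 0 within version 3.1.0. The difference from astrocytes gave 3 with a prior count of 0.5.

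Leaving out each mouse in turn gave 0 to 9 genes for P301S Cgas+/+ against Cgas+/+, 39 to 133 between the sexes, 11 to 74 for all P301S against all tau-free mice, 0 to 1 for the difference from mature oligodendrocytes, 0 to 7 for that from astrocytes, and 0 in every case for the deletion and heterozygosity. For all P301S mice the lowest count of 11 came with P301S Cgas+/+ replicate 1 left out, and the highest of 74 with replicate 2 of that group left out; it was 14 without Cgas-/- replicate 1, 16 without Cgas-/- replicate 2 or Cgas+/+ replicate 3, and 19 without Cgas+/- replicate 1 or Cgas+/+ replicate 5. For P301S Cgas+/+ against Cgas+/+ it was 0 without Cgas+/+ replicate 1, 2 or 5, 1 without Cgas+/+ replicate 3 or P301S Cgas+/+ replicate 1, 3 or 5, 9 when P301S Cgas+/+ replicate 2 was left out and 5 when replicate 6 of P301S Cgas+/- was. Between the sexes it was 133, 109, 92, 88 and 86 without P301S Cgas+/+ replicate 6, Cgas+/+ replicate 5, P301S Cgas+/+ replicate 5, P301S Cgas+/- replicate 3 and P301S Cgas-/- replicate 5.

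The difference in OPC share in percentage points for all P301S mice was -0.273 under the stricter rule, -0.194 with stricter exclusion and -0.401 within version 3.1.0 (-0.282 at 1500 UMIs), none past the threshold. For P301S Cgas+/+ against Cgas+/+ it turned to 0.0886 with stricter exclusion, and for heterozygosity it was -0.582 at 1500 UMIs (exact permutation p = 0.0260 before adjustment). The committed precursor difference for P301S Cgas+/+ turned to 0.0565 when 3 UMIs of Gpr17 were required. The share with cycle genes differed by 1.98 for P301S Cgas+/+ with 4 genes required, by 1.80 with thinned nuclei, and by 2.41 for all P301S mice within version 3.1.0, none past the threshold. With each mouse left out the OPC share difference ran from -0.336 to 0.0636 for P301S Cgas+/+, -0.339 to 0.0600 for the deletion, -0.761 to -0.361 for heterozygosity and -0.581 to -0.464 for all P301S mice. At 1500 UMIs it ran from -0.241 to 0.0271, -0.331 to -0.0629, -0.697 to -0.430 and -0.497 to -0.396. Committed precursors per 100 ran from -2.21 to -0.267, -0.631 to 1.23, 0.00647 to 3.21 and 0.117 to 1.43, and the share with cycle genes from 2.33 to 3.21, -1.28 to -0.129, -1.63 to -0.0186 and 1.99 to 2.47. Depth limits what could be tested, since only 16 of 81 interferon-stimulated genes passed the filter in the 27-mouse fit.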
